A study of Mus musculus with 3 samples.

Results

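The 44 collagen chain genes of the mouse genome annotation used here were taken as every gene whose symbol is Col, a number, a and a number (such as Col1a1), among 55357 genes in the files. The data came from 10x Genomics single-cell RNA sequencing of dissociated 4T1 tumours (4T1 is a mouse mammary carcinoma line) grown in female mice of 8-10 weeks. One library came from tumour of 4T1-sgVC cells, labelled WT, and 1 from tumour of 4T1-sgCPT1A cells, labelled as a CPT1A knockdown. CPT1A is the mitochondrial enzyme that lets long-chain fatty acids enter for oxidation. Mice carrying the tumours were kept for 8 days, and the libraries were made to see how the cells of the tumour changed when Cpt1a was depleted. The labels attach the knockdown to the tumour line, so fibroblasts, vessel cells and blood cells of both tumours are cells of the host; the host strain and the number of mice or clones behind each library are not given in the sources used here. A further sgCPT1A sample is listed in the labels and was not analysed here. With 1 library per group there is no test of the difference between tumours: values are unique molecular identifiers (UMIs, 1 per captured RNA molecule) summed over the cells of a class and scaled to 1e6 UMIs of that class (counts per 1e6, CPM), every interval is a 95% interval of counting error alone, and no value speaks for the spread between tumours.

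Collagens are trimeric proteins of the extracellular matrix, each built from 3 chains that are wound around each other in the endoplasmic reticulum. Fibrillar collagens (types I, III, V) make the tension-bearing fibrils of connective tissue, type IV forms the sheet of basement membranes, type VI makes beaded filaments close to cells, FACIT collagens (XII, XIV, XVI) sit on the surface of fibrils, multiplexins (XV, XVIII) lie in basement membrane zones, and type VII forms anchoring fibrils. Fibroblasts are the main source of interstitial collagen in tumours, pericytes and endothelial cells lay down the vessel basement membrane, and some carcinoma cells make chains of their own.

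The sgVC library held 9890 barcodes and 155948212 UMIs, and the sgCPT1A library 7198 barcodes and 35557125 UMIs; 18 barcodes occurred in both. After filtering, 9319 sgVC and 6743 sgCPT1A cells remained, and clusters were named from marker lists as "-like" classes. Fibroblast-like cells numbered 389 in sgVC and 510 in sgCPT1A, pericyte or smooth muscle-like cells (pericyte-like below) 27 and 55, and tumour-like cells 4458 and 12. In sgVC, 291 barcodes were left out as doublets, whereas the caller marked 1 in sgCPT1A and was taken not to have worked there. The targeted gene Cpt1a stood at 17.3 CPM in the 4458 sgVC tumour-like cells (interval 16.6 to 18.1), and the 12 tumour-like cells of sgCPT1A held 3 of its UMIs, too few to check the label. Since only 12 tumour-like cells were left in sgCPT1A, chains of tumour-like cells are described in sgVC alone. All 10 fibroblast markers and all 11 pericyte markers were detected in the cells of their class in both libraries, with summed levels of 11353 and 16074 CPM in fibroblast-like cells and 11920 and 10082 CPM in pericyte-like cells.

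Genome sequence is shown for chains on which the results turn. Col4a1 and Col4a2, which form the usual type IV trimer, start head to head on opposite strands of chromosome 8, and the 22 bases between their RefSeq starts lie in both transcripts (GRCm38.p6, chr8:11312805-11312826, plus strand). They are shown because the ratio of this pair is compared across stromal, endothelial-like and tumour-like cells below. RefSeq promoter windows were found for 35 of the 44 chains. For 3 chains the 120 bases before the RefSeq start are shown, 5′ to 3′ on the gene's strand. These chains are Col1a2 (chr6:4505498-4505617, plus strand) and Col3a1 (chr1:45311418-45311537, plus strand), which were highest in fibroblast-like cells, and Col5a1 (chr2:27886305-27886424, plus strand), which was also read in tumour-like cells. Capitals mark matches to the motifs searched on both strands, which were the CCAAT box, the TATA box core (TATAAA) and the GC box (GGGCGG), with no overlap among the matches shown. The same 120 bases of Col6a1 were also searched, held no match and are not printed.
Col4a1-Col4a2: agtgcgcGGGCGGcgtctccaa
Col1a2: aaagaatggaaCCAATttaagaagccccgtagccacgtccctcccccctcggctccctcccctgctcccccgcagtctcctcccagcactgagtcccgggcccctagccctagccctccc
Col3a1: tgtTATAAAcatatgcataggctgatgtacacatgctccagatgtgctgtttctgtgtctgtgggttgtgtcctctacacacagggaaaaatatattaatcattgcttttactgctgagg
Col5a1: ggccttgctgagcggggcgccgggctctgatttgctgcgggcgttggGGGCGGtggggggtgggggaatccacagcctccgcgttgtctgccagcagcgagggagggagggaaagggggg
The CCAAT of Col1a2 begins 109 bases before the start, the TATAAA of Col3a1 117 bases before it, and the GGGCGG of Col5a1 73 bases before it. Over the 250 bases before the start, CCAAT occurred in 13 of 38 chain windows (34.2%) and in 33.8% of 32851 windows of all genes, TATAAA in 5 (13.2%) and 12.4%, and GGGCGG in 22 (57.9%) and 32.7%. By chain, GGGCGG occurred in a window of 9 of the 12 chains with one that are given below to fibroblast-like cells, of 3 of 4 given to pericyte-like cells and of 5 of 11 shared ones, which are counts of letters and not of bound sites.

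Which class each chain belongs to was asked first, within each library. A chain was given to fibroblast-like, pericyte-like or tumour-like cells where it had at least 20 UMIs over these classes and its CPM there was at least 2-fold that of the next class, with an interval of the ratio above 1. In sgVC, 17 of the 32 chains with enough UMIs belonged to fibroblast-like cells, 4 to pericyte-like cells and 0 to tumour-like cells, while 11 were shared and 12 had too few UMIs. Over all 15777 genes measured the same way, 6.66% belonged to fibroblast-like, 5.74% to pericyte-like and 10.1% to tumour-like cells, and 77.5% were shared. Collagen chains made up 5.82% of all UMIs of sgVC fibroblast-like cells, 1.41% in pericyte-like cells and 0.0520% in tumour-like cells. In sgCPT1A, with fibroblast-like and pericyte-like cells alone compared, 16 chains belonged to the former and 8 to the latter, with 7 shared, beside 10.0%, 13.5% and 76.5% of all genes. Of the 21 chains that had a class in sgVC, 19 were measured in sgCPT1A and 17 had the same class there. The exceptions were Col6a5 and Col8a1. The share of all genes that kept their class was not counted. Chains whose next class in sgVC was tumour-like, such as Col7a1 and Col18a1, were set against another class in sgCPT1A.

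The fibroblast chains were led by those of types I and III. Col1a1, the chain present in double dose in type I collagen, had 16028 CPM (sgVC) and 25908 CPM (sgCPT1A) in fibroblast-like cells, against 2291 and 4686 CPM in pericyte-like cells and 5.22 CPM in sgVC tumour-like cells. Col1a2, its partner, stood at 12582 and 18405 CPM in fibroblast-like, 1183 and 2607 CPM in pericyte-like and 3.19 CPM in tumour-like cells. Col3a1, the single chain of type III, stood at 20214 and 26785 CPM, 1546 and 3860 CPM, and 5.67 CPM in the same order. For these chains the tumour-like level was below that of neutrophil-like cells, which should not make them and held 16.5, 12.2 and 35.9 CPM (sgVC) or 74.5, 47.6 and 107.8 CPM (sgCPT1A). Values at or below these levels are not read here as expression. Per cell the order was the other way in sgVC, with 0.142 Col1a1 UMIs in tumour-like and 0.0256 in neutrophil-like cells. The classes differ in depth, so the CPM levels do not show such values to be background. Where the counts in neutrophil-like cells come from was not tested, and 1 such cell of sgCPT1A held 9.30% of their Col1a1 UMIs.

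Fibrillar partners and FACIT chains followed. Col5a1 and Col5a2, which set fibril diameter as type V, stood at 1166 and 1819 CPM in sgVC fibroblast-like cells and at 418 and 616 CPM in pericyte-like cells. Col12a1, a FACIT of loaded tissue, was 6.51-fold higher in fibroblast-like than in pericyte-like cells of sgVC (1608 against 247.1 CPM). Col14a1, a FACIT of mature fibrils, was 17.0-fold higher (311.5 against 18.3 CPM, log2 ratio 4.09, interval 2.96 to 5.54). In sgCPT1A the corresponding ratios were 6.57 for Col12a1 and 112.7 for Col14a1, the latter resting on 6 UMIs in pericyte-like cells. The other fibroblast chains of sgVC were Col6a5, Col6a6, Col7a1, Col9a3, Col11a2, Col16a1, Col23a1, Col24a1, Col27a1 and Col28a1. Of these, Col9a3 and Col11a2 rested on 6 and 5 UMIs in fibroblast-like cells, and their levels of 1.04 and 0.864 CPM were below those in neutrophil-like cells (1.44 and 1.08 CPM).

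The chains of pericyte-like cells in both libraries were Col4a1, Col4a2 and Col18a1, all found in basement membranes, joined by Col8a1 in sgVC and by 5 type VI chains in sgCPT1A. Col4a1 reached 1769 CPM in pericyte-like cells of sgVC and 2361 CPM in those of sgCPT1A, against 200.4 and 330.1 CPM in fibroblast-like cells, which is 8.83-fold and 7.15-fold higher. Col4a2 stood at 802.2 and 1012 CPM against 101.5 and 166.6 CPM. Col18a1, the multiplexin whose end piece is endostatin, stood at 726 and 771 CPM against 41.5 and 71.8 CPM, 9.12-fold above tumour-like cells in sgVC (79.6 CPM) and 10.7-fold above fibroblast-like cells in sgCPT1A. Col8a1, a short chain of vessel walls, was given to pericyte-like cells in sgVC from 40 UMIs (122 against 55.2 CPM) and was shared in sgCPT1A (59.7 against 44.8 CPM), where 76.6% of its pericyte-like UMIs came from 1 cell. Col6a4 also had its highest level in pericyte-like cells, with 33.6 and 21.5 CPM there against 0.346 and 0.412 CPM in fibroblast-like cells, but rested on 11 and 23 UMIs.

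Type VI lay between both stromal classes. Col6a1, Col6a2 and Col6a3, which form the common type VI trimer, stood at 1254, 671 and 1775 CPM in sgVC pericyte-like cells and at 993.6, 579.4 and 1205 CPM in fibroblast-like cells. All 3 were thus higher in pericyte-like cells but by less than 2-fold. In sgCPT1A the pericyte-like levels were 1693, 1060 and 1814 CPM and the fibroblast-like levels 752.5, 495.2 and 722.4 CPM, so that all 3 passed the 2-fold rule there. Col6a5 was 2.12-fold higher in fibroblast-like cells of sgVC (90.4 against 42.7 CPM) and 2.34-fold higher in pericyte-like cells of sgCPT1A (53.2 against 22.7 CPM). Col5a3 and Col15a1 were shared in both libraries.

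**Figure D1:**
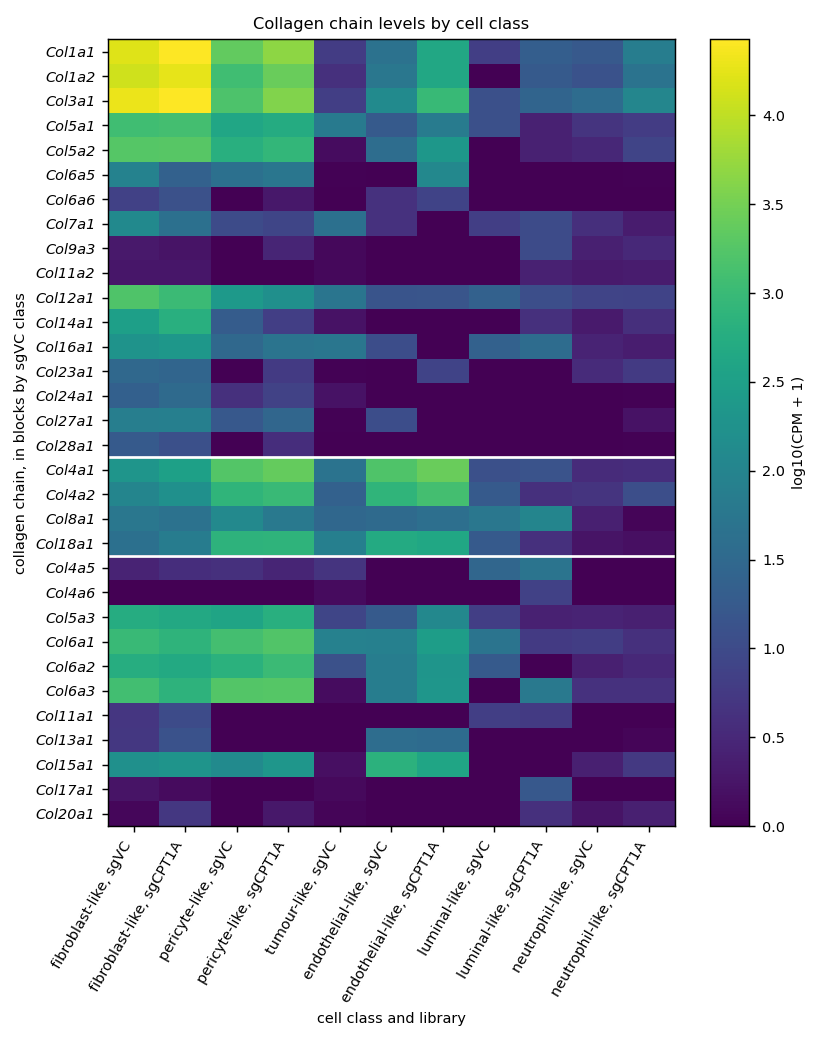
Level of the 32 chains with at least 20 UMIs in the 3 compared sgVC classes (rows, in blocks from top to bottom: fibroblast chains, pericyte chains, shared chains) in each cell class and library (columns), as log10(CPM + 1). Col1a1, Col1a2 and Col3a1 are brightest in fibroblast-like columns, Col4a1, Col4a2 and Col18a1 in pericyte-like and endothelial-like ones, and the tumour-like column shows Col5a1 and Col6a1 but not Col5a2 or Col6a3.

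Classes outside the 3 compared held some of the same chains. Endothelial-like cells (20 in sgVC, 12 in sgCPT1A) stood at 1590 and 2562 CPM for Col4a1, 515.7 and 427.1 CPM for Col18a1, and 702 and 393.2 CPM for Col15a1, so these chains were also read in vessel-lining cells. In sgCPT1A these endothelial-like cells also held 10 of the 11 pericyte markers at a summed 3389 CPM (1118 CPM and 9 of 11 in sgVC), and what part pericyte RNA has in their chain levels was not tested. All 7 sgVC UMIs and all 6 sgCPT1A UMIs of Col9a1, a FACIT of cartilage, were in luminal epithelium-like cells (13 and 30 cells). Col8a1 stood at 56.0 and 103 CPM in the same luminal epithelium-like cells, on 10 and 67 UMIs. In sgCPT1A this was above the 59.7 CPM of pericyte-like cells. A further 14 sgVC cells in no named class held 3.66% of the Col1a1 UMIs. Col10a1, the chain of growth plate cartilage, had 0 UMIs in the kept cells of either library.

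Tumour-like cells of sgVC carried an incomplete set of chains at low level. The highest were Col6a1 at 88 CPM (interval 86.4 to 89.7), Col18a1 at 79.6 CPM (78.1 to 81.2) and Col5a1 at 66.8 CPM (65.3 to 68.2). They were followed by Col16a1 at 52.8, Col12a1 at 50.9, Col4a1 at 47.4, Col7a1 at 41.7, Col8a1 at 29.4 and Col4a2 at 22.7 CPM. Col6a2 stood at 11.7 CPM and Col5a3 at 7.27 CPM. In neutrophil-like cells of the same library Col6a1, Col18a1, Col5a1, Col4a1 and Col7a1 stood at 5.39, 0.719, 3.59, 2.51 and 2.87 CPM, well below. By contrast Col5a2 stood at 0.387 CPM (0.284 to 0.515) and Col6a3 at 0.420 CPM (0.313 to 0.552) in tumour-like cells, under the 2.16 and 3.23 CPM of neutrophil-like cells. Per cell these 2 chains stood higher in tumour-like cells, at 0.0105 and 0.0114 UMIs against 0.00334 and 0.00501 in neutrophil-like cells. Of the 4458 tumour-like cells, 71.3% had a UMI of Col5a1 and 0.897% one of Col5a2; with every cell thinned to 1000 UMIs these shares were 6.98% and 0.0680%, against 0.273% and 0.205% in neutrophil-like cells. The unthinned medians were 23631 UMIs per tumour-like and 1460.5 per neutrophil-like cell.

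Because the tumour-like class was large and deeply read (by median depth, above fibroblast-like cells with 14409 UMIs), it held most of the library's UMIs for several chains despite its low CPM. It held more UMIs than any other class for 14 of the 32 chains measured, with 93.4% of those of Col18a1, 89.8% of Col8a1, 86.9% of Col7a1, 84.4% of Col16a1, 71.0% of Col4a1, 62.2% of Col6a1 and 52.9% of Col5a1. For Col1a1, Col1a2, Col3a1 and Col5a2 its part was 0.646%, 0.504%, 0.552% and 0.415%. These shares describe the sequenced suspension, with its 4458 tumour-like and 389 fibroblast-like cells. The tumour-like class held 121367276 UMIs of all genes and the fibroblast-like class 5784060. For what share of all genes the tumour-like class held the most UMIs was not counted. Of the chains with at least 50 tumour-like UMIs, Col4a5 and Col18a1 stood higher in tumour-like than in fibroblast-like cells. Col4a5, an alternative type IV chain of epithelia, stood at 3.55 against 1.73 CPM on 431 and 10 UMIs. By the rule above Col4a5 was shared, with pericyte-like cells at 3.05 CPM on 1 UMI. In luminal epithelium-like cells of sgVC it stood at 28.0 CPM on 5 UMIs.

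Among the 4 tumour-like clusters, cluster 7 (2247 cells) stood highest in Col4a1, Col5a1, Col6a1, Col7a1, Col12a1, Col16a1 and Col18a1. Col6a1 stood at 137 CPM there, against 46, 69.1 and 67.3 CPM in clusters 8, 9 and 10. Col5a1 stood at 96 CPM against 47.2, 61.3 and 47.4 CPM, and Col12a1 at 89.7 CPM against 21.6, 44.7 and 29.1 CPM. Col18a1 varied less, from 54.4 CPM in cluster 9 to 93.9 CPM in cluster 7, and Col8a1 was highest in cluster 10 at 33.7 CPM. Col5a2 and Col6a3 stayed at or below 0.503 CPM in all 4 clusters.

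Chains that assemble together were then compared as ratios of their UMIs, read across classes and not as the make-up of the protein. Col4a1 and Col4a2, whose starts are printed above, had a ratio near that of fibroblast-like cells in each of the 4 classes compared. It was 1.97 (interval 1.79 to 2.18) and 1.98 in fibroblast-like cells of sgVC and sgCPT1A, 2.21 and 2.33 in pericyte-like cells, 2.02 and 2.01 in endothelial-like cells, and 2.09 in sgVC tumour-like cells. Types V and VI did not keep theirs in tumour-like cells. Col5a1 to Col5a2 stood at 0.641 and 0.675 in fibroblast-like and 0.678 and 0.617 in pericyte-like cells, but at 172 (130 to 235) in tumour-like cells. Col6a1 to Col6a3 stood at 0.824 and 1.04 in fibroblast-like and 0.706 and 0.933 in pericyte-like cells, and at 209 (159 to 281) in tumour-like cells. Col6a1 to Col6a2 lay between 1.52 and 1.87 in the stromal classes and at 7.52 (7.11 to 7.95) in tumour-like cells. Cell by cell, 70.5% of tumour-like cells had a UMI of Col5a1 and none of Col5a2, and 65.3% had one of Col6a1 and none of Col6a3. Col1a1 to Col1a2 was 1.27 (1.26 to 1.29) in sgVC and 1.41 (1.40 to 1.42) in sgCPT1A fibroblast-like cells. Col8a1 was read with hardly any of its partner Col8a2, with 319 and 3 UMIs in sgVC and 544 and 18 UMIs in sgCPT1A fibroblast-like cells, and with 3564 and 0 UMIs in tumour-like cells. For a count of 0, up to 3 UMIs are allowed by counting error.

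**Figure D2:**
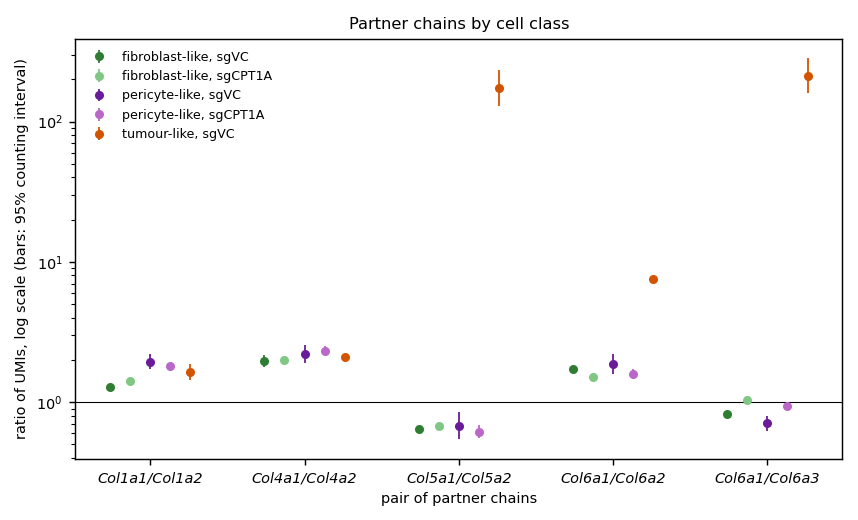
Ratio of UMIs (log axis, first chain over second) for 5 pairs of chains, with 95% counting intervals, in fibroblast-like and pericyte-like cells of both libraries and tumour-like cells of sgVC. Col4a1 over Col4a2 lies between 1.97 and 2.33 throughout, while Col5a1 over Col5a2 and Col6a1 over Col6a3 reach 172 and 209 in tumour-like cells.

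The sgCPT1A and sgVC tumours were then compared in their fibroblast-like cells. A chain was counted higher or lower where it had at least 20 UMIs over both libraries, a CPM ratio of at least 1.5-fold and an interval that left out equality. Of 31 chains with enough UMIs, 12 were higher in sgCPT1A (12.0% of all 13109 genes were) and 5 were lower (12.4% of all genes), while 14 lay between and 13 had too few UMIs. The median log2 ratio of sgCPT1A over sgVC was 0.41 for the chains and -0.01 for all genes. Chains made up 7.97% of the UMIs of sgCPT1A fibroblast-like cells against 5.82% in sgVC, and the median cell stood at 7.32% and 5.48%. The count of higher chains dropped to 5 without cluster 26 and to 4 when clusters 17, 18 and 19 alone were used, with the same weights in both libraries and calls by fold alone. The count of lower chains was 2 with sgVC doublets kept. Median depth was 14409 UMIs per cell in sgVC and 23650 in sgCPT1A.

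Col1a1, Col4a1, Col4a2 and Col18a1 were among the higher ones; in clusters 17, 18 and 19 at the same weights in both libraries, Col1a1, Col4a1 and Col4a2 were under 1.5-fold. Col1a1 stood at 16028 and 25908 CPM in sgVC and sgCPT1A (log2 ratio 0.69, interval 0.68 to 0.70), Col1a2 stood at 12582 and 18405 CPM (0.55) and Col3a1 at 20214 and 26785 CPM (0.41), so that Col1a2 and Col3a1 stayed under 1.5-fold. Type V hardly differed, with Col5a1 at 1166 and 1286 CPM (0.14), Col5a2 at 1819 and 1904 CPM (0.07) and Col5a3 at 548.9 and 468.8 CPM (-0.23). Of the 9 fibrillar chains measured, 3 were higher (Col1a1, Col11a1 and Col24a1) and 0 lower. Col11a1, a minor fibrillar chain of cartilage that is also made by activated fibroblasts, stood at 3.98 and 9.48 CPM (1.25, 0.60 to 1.97). Col24a1 stood at 21.6 and 32.6 CPM (0.59, 0.30 to 0.89), and Col27a1 did not pass at 78.3 and 81.4 CPM (0.06). Of the 4 type IV chains measured, 3 were higher, with Col4a1 at 200.4 and 330.1 CPM (0.72, 0.63 to 0.82) and Col4a2 at 101.5 and 166.6 CPM (0.72, 0.58 to 0.85); the other, Col4a4, rested on 6 and 34 UMIs. Col18a1, their neighbour in basement membranes, stood at 41.5 and 71.8 CPM (0.79, 0.58 to 1.00), and Col15a1 at 166 and 198 CPM (0.25).

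FACIT chains differed in opposite directions. Col14a1 was at 311.5 and 630.9 CPM (1.02, 0.94 to 1.09), whereas Col12a1 was at 1608 and 1055 CPM (-0.61, -0.65 to -0.57). Col16a1 lay between, at 187 and 216 CPM (0.21). Col20a1 was counted higher on 1 and 51 UMIs, but 82.4% of the latter came from 1 cell. Among transmembrane collagens, Col13a1 stood at 4.32 and 12.0 CPM (1.48, 0.86 to 2.15), with 16 of its 25 sgVC and 137 of its 146 sgCPT1A UMIs in 1 cluster (cluster 26, described below), where it stood at 108 and 123 CPM. Col23a1 at 30.9 and 26.9 CPM (-0.20), and Col25a1 was counted higher on 7 and 35 UMIs.

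The other 4 lower chains were Col6a3, Col6a5, Col7a1 and Col28a1, and of the 5 type VI chains measured 2 were lower and 1 higher. Col6a3 stood at 1205 and 722.4 CPM (-0.74, -0.78 to -0.69), while Col6a1 at 993.6 and 752.5 CPM (-0.40) and Col6a2 at 579.4 and 495.2 CPM (-0.23) differed less, which moved Col6a1 to Col6a3 from 0.824 to 1.04. Col6a5, an alternative chain of type VI, stood at 90.4 and 22.7 CPM (-1.99, -2.21 to -1.78). Col6a6, its paralogue, went the other way at 6.05 and 11.5 CPM (0.93, 0.39 to 1.51). Col7a1 stood at 124.7 and 42.4 CPM (-1.56, -1.72 to -1.39). Col28a1, found at nerves, stood at 17.3 and 11.0 CPM (-0.66, -1.04 to -0.27), and Col8a1 lay between at 55.2 and 44.8 CPM (-0.30). None of these values has a replicate, so 1 library of each kind is compared.

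**Figure D3:**
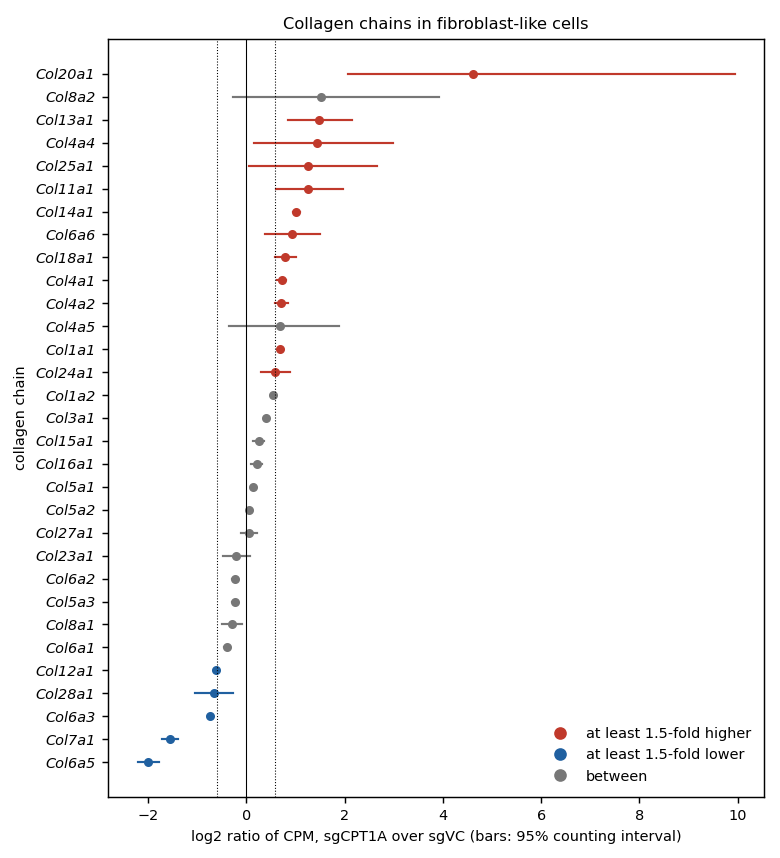
Log2 ratio of CPM, sgCPT1A over sgVC, in fibroblast-like cells for the 31 chains with at least 20 UMIs; bars are 95% counting intervals and dotted lines mark 1.5-fold. Col14a1, Col4a1, Col18a1 and Col1a1 lie to the right of the upper line, and Col6a3, Col12a1, Col7a1 and Col6a5 to the left of the lower one.

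RNA of other cells also differed between the libraries in the same fibroblast-like cells. Tumour markers summed to 258 CPM in sgVC (5 of 7 detected, Cldn4 and Cldn7 at 0) and 11.5 CPM in sgCPT1A (7 of 7), neutrophil markers to 192 CPM (6 of 7) and 713 CPM (7 of 7), and macrophage markers to 198 CPM (9 of 10) and 452 CPM (10 of 10). Schwann or glial markers summed to 4.32 CPM (2 of 7) and 54.7 CPM (6 of 7). Pericyte markers stood at 356 and 332 CPM and endothelial markers at 10.5 and 14.8 CPM. The level of collagen in neutrophil-like cells themselves was at most 35.9 CPM (sgVC) or 107.8 CPM (sgCPT1A) for any chain. Cluster 23 (6 sgVC and 43 sgCPT1A cells) carried neutrophil markers beside those of fibroblasts, and without it 11 chains were higher and 5 lower. For the other lists, their part in the chain ratios was not tested.

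Fibroblast-like clusters differed in their chains, and the libraries differed in their clusters. Cluster 17, led by Crabp1, Postn and Tnc, held 153 sgVC and 65 sgCPT1A cells and was highest in Col12a1, at 2517 and 2498 CPM, and low in Col14a1, at 78.5 and 119 CPM. Cluster 18, led by Dpt and Mfap5, held 62 and 103 cells, with Col14a1 at 696 and 1002 CPM and Col7a1 on 3 and 5 UMIs. Cluster 19, led by Serpina3n and Sfrp2, held 35 and 135 cells, with Col1a1 at 18999 and 31805 CPM and Col3a1 at 35792 and 33756 CPM. Cluster 26, led by Postn, Lum and Apod, held 16 and 68 cells. Of the 6 sgCPT1A clusters with at least 20 cells, it was highest in Col4a1, Col4a2, Col7a1, Col13a1, Col15a1 and Col18a1. Of the common type VI trimer, it was highest in Col6a1 and Col6a2 but not Col6a3. It held Col15a1 at 1261 CPM, Col6a1 at 1826 CPM, Col4a1 at 817 CPM, Col18a1 at 282 CPM and Col13a1 at 123 CPM, while its Col1a1, at 16158 CPM, was the lowest of the 6 clusters measured there. Col6a5 was highest in cluster 22, at 312 CPM, which held 75 sgVC and 4 sgCPT1A cells. Across the 6 sgCPT1A clusters with at least 20 cells, Col6a3, Col5a2 and Col5a1 varied by 1.17-fold, 1.33-fold and 1.38-fold, whereas Col12a1 varied by 9.94-fold and Col15a1 by 176-fold. Across the 5 sgVC clusters of that size Col6a3 varied by 3.37-fold, from 512.6 CPM in cluster 18 to 1730 CPM in cluster 17, while Col5a2 and Col5a1 varied by 1.66-fold and 1.37-fold.

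**Figure D4:**
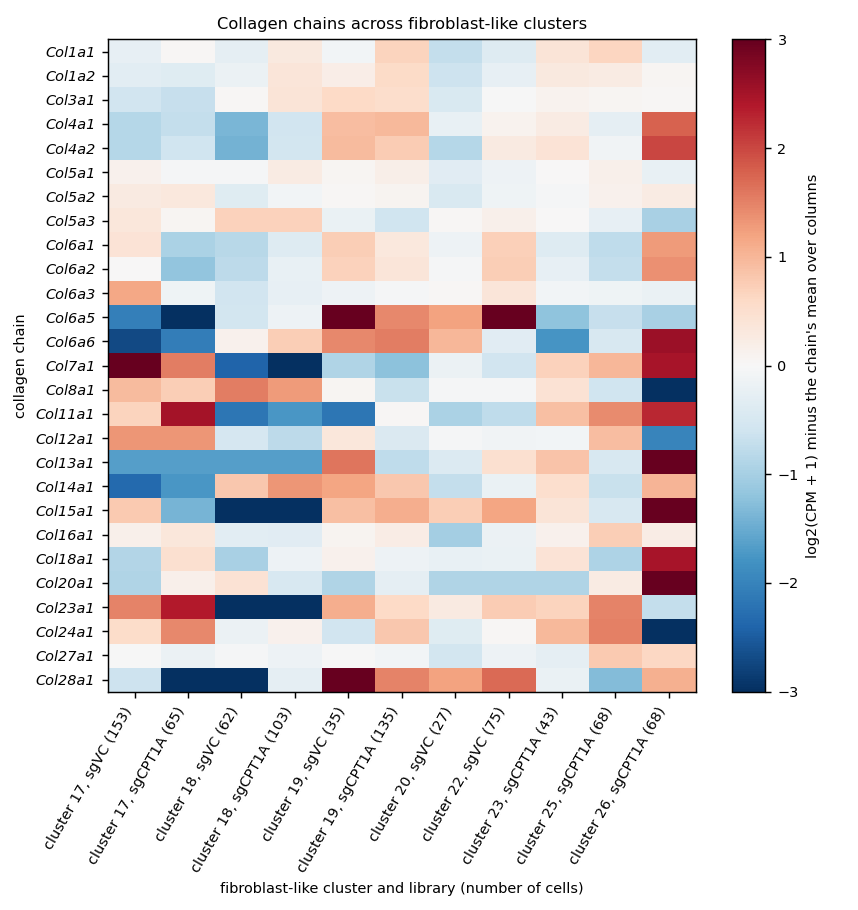
Level of each chain, as log2(CPM + 1) minus the chain's mean over columns, in each fibroblast-like cluster and library with at least 20 cells. Cluster 26 of sgCPT1A stands above the mean in Col15a1, Col4a1 and Col18a1, cluster 17 of both libraries in Col12a1, and cluster 22 of sgVC in Col6a5.

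The same rule was applied within the 3 clusters that held at least 20 cells in each library, on fewer UMIs. In cluster 17, 5 chains were higher (7.87% of all genes) and 5 lower (10.8%). In cluster 18, 3 were higher (4.26%) and 0 lower (7.58%), and in cluster 19, 2 were higher (3.63%) and 3 lower (7.27%). Of the 17 chains called in all fibroblast-like cells, 7 had the same sign in all 3 clusters. These are signs of the ratio whatever its interval. Some rest on few UMIs, such as 0 in sgVC and 1 in sgCPT1A for Col11a1 in cluster 18 and for Col6a6 in cluster 17. The share of all genes with the same sign was not counted. Col1a1 was higher in each, by log2 0.29, 0.57 and 0.74 in clusters 17, 18 and 19. Col24a1 was on the higher side, at 0.93, 0.31 and 1.45, with an interval of -0.63 to 1.38 in cluster 18. Col7a1 was lower in cluster 17 (-1.53, -1.79 to -1.27). It rested on 3 and 5 UMIs in cluster 18 (-1.45) and on 7 and 42 in cluster 19 (-0.33), with intervals that took in 0. Col12a1 was also on the lower side, but at -0.01 (interval -0.07 to 0.04), -0.29 and -0.79. Col4a1 stood at 0.14, 0.80 and 0.06, Col4a2 at 0.25, 0.88 and -0.18, Col18a1 at 1.40, 0.86 and -0.29, and Col14a1 at 0.60, 0.53 and -0.36. Col6a3 was lower in cluster 17 alone of the 3 (-1.31, 0.33 and 0.12), as was Col6a1 by over 1.5-fold (-1.36, 0.45 and -0.42). With the 3 clusters weighted by their sgVC sizes in both libraries, 4 chains were higher and 6 lower by fold alone, and the median over chains was 0.044; Col1a1 stood at 0.44, Col4a1 at 0.22, Col4a2 at 0.21, Col18a1 at 1.01, Col14a1 at 0.27, Col12a1 at -0.09, Col6a3 at -0.89 and Col7a1 at -1.50. Without cluster 26, Col1a1 stood at 0.74, Col14a1 at 1.03 and Col24a1 at 0.69, and Col15a1 moved from 0.25 to -0.71.

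**Figure D5:**
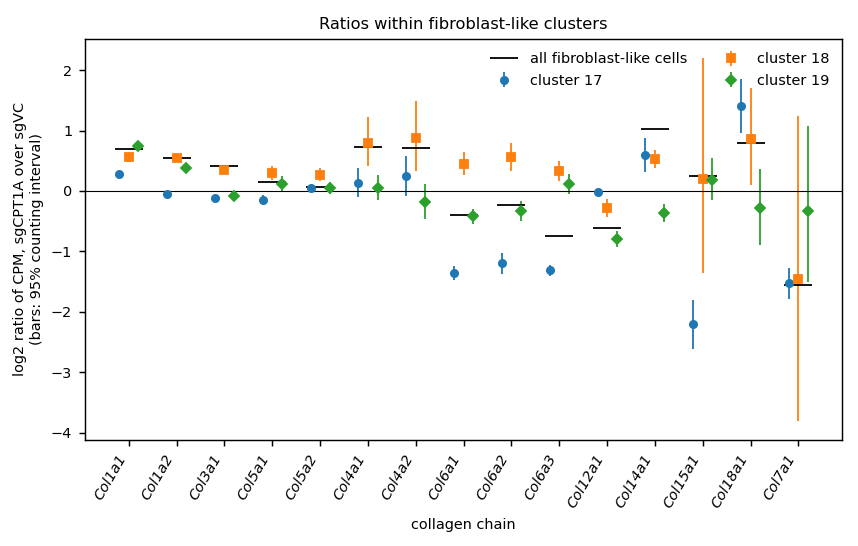
Log2 ratio of CPM, sgCPT1A over sgVC, for 15 chains within fibroblast-like clusters 17, 18 and 19, with 95% counting intervals; the dash marks all fibroblast-like cells. The points of Col1a1 lie above 0 in each cluster and those of Col7a1 below 0, though the Col7a1 intervals reach across 0 in clusters 18 and 19. The points of Col6a1, Col6a3, Col14a1 and Col15a1 lie on both sides.

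In pericyte-like cells (27 in sgVC, 55 in sgCPT1A), 6 of 19 chains were higher in sgCPT1A (7.53% of 7318 genes) and 2 lower (6.20%), with a median log2 ratio of 0.43 against 0.05 for all genes. The higher ones were Col1a1 (2291 and 4686 CPM, 1.03), Col1a2 (1183 and 2607 CPM, 1.14), Col3a1 (1546 and 3860 CPM, 1.32), Col5a3 (381 and 617 CPM, 0.69), Col6a2 (671 and 1060 CPM, 0.66) and Col15a1 (131 and 211 CPM, 0.69). The lower ones were Col12a1 (247.1 and 160.5 CPM, -0.62) and Col8a1 (122 and 59.7 CPM, -1.03). Between 20.7% and 30.4% of the UMIs of Col1a1, Col1a2 and Col3a1 came from 1 cell in each library. Fibroblast markers summed to 836 CPM in sgVC pericyte-like cells (6 of 10, with Pdgfra, Lum, Pdpn and Mfap5 at 0) and to 1642 CPM in sgCPT1A (10 of 10), and their part in these ratios was not tested. The chains that belonged to pericyte-like cells in both libraries differed less, with Col4a1 at 0.42 (0.29 to 0.55), Col4a2 at 0.34 (0.14 to 0.53) and Col18a1 at 0.09 (-0.12 to 0.30).

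Genes that make, process and bind collagen were read in the same fibroblast-like cells, by the same rule and in lists chosen with earlier results known. Over all genes 12.0% were higher and 12.4% lower. None of the 12 prolyl and lysyl hydroxylation genes passed in either direction, with a median log2 ratio of -0.10 against -0.01 for all genes. P4hb, the shared subunit of prolyl 4-hydroxylase, stood at 508 and 529 CPM, Plod2, which hydroxylates telopeptide lysines, at 182 and 210 CPM, P3h1 at 113 and 86.1 CPM and P3h3 at 87.1 and 111 CPM. Of 11 folding and secretion genes measured, 0 were higher and 1 lower (median 0.01). That one was Ppib, the cyclophilin B that isomerises prolines of procollagen, at 1423 and 821 CPM (-0.79, -0.84 to -0.75), while Serpinh1, the collagen chaperone HSP47, stood at 2530 and 2349 CPM and Mia3, which loads procollagen for export, at 110 and 138 CPM.

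Of 6 propeptide removal genes measured, 1 was higher and 1 lower (median 0.00). Adamts3, a procollagen N-proteinase, rested on 4 and 65 UMIs, and Pcolce2, an enhancer of C-proteinase, stood at 169 and 92.0 CPM (-0.88), while Bmp1 stood at 682 and 640 CPM and Pcolce at 741 and 790 CPM. Of 5 cross-linking genes, 0 were higher and 1 was lower (median 0.11), namely Loxl3 at 192 and 66.3 CPM (-1.53, -1.66 to -1.40). Lox stood at 785 and 820 CPM, Loxl1 at 605 and 655 CPM and Loxl2 at 325 and 429 CPM. Of 12 fibril-binding genes measured, 7 were higher and 0 lower (median 0.68). Dcn, which coats fibrils, stood at 4820 and 8067 CPM (0.74), Aspn at 67.1 and 218 CPM (1.70) and Ogn at 73.8 and 226 CPM (1.62), while Sparc stood at 12570 and 14230 CPM (0.18). Dcn and Lum are also markers of the class, and without them 5 of 10 were higher (median 0.50); in clusters 17, 18 and 19 at the same weights in both libraries 2 were higher and 1 lower (median 0.28). Of 9 collagen receptor and uptake genes measured, 2 were higher and 0 lower (median 0.09). These were Ddr2, a receptor kinase for fibrillar collagen, at 101 and 154 CPM (0.61), and Itga11, an integrin chain for type I collagen, on 37 and 164 UMIs (1.08), whereas Itgb1 stood at 381 and 348 CPM and Ctsk, which cleaves collagen, at 654 and 876 CPM.

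Chains not described above had little RNA. Of the 44, 41 had a UMI in the sgVC library and 43 in sgCPT1A. Col4a3, Col9a2, Col17a1, Col19a1, Col22a1 and Col26a1 had at most 7 UMIs in fibroblast-like or pericyte-like cells of either library, and Col2a1 had 19 UMIs in sgVC tumour-like cells and 3 in sgCPT1A fibroblast-like cells. Col4a6, a type IV chain that starts head to head with Col4a5, had 41 UMIs in sgVC tumour-like cells and 0 in fibroblast-like cells of either library.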

How the data were processed

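The authors deposited, per the file headers, count matrices of UMIs per gene and cell from Cell Ranger 7.1.0; Seurat 4.1.0 and the build GRCm38 are named in the submitters' processing notes. Barcodes under 200 genes or over 20% mitochondrial UMIs were dropped, Scrublet doublets were left out of sgVC, and cells of both libraries were clustered together without the collagen chains (scanpy 1.11.5, leidenalg 0.10.2, 2000 variable genes, 30 components, 15 neighbours, resolution 1, stromal cells again at 0.5). A cluster took the name whose markers led, from at least 3 at 2-fold and in 10% of cells. The sgVC library held more UMIs in all, 155948212 against 35557125, though its median fibroblast-like cell held fewer, 14409 against 23650. UMIs were summed per class and library, with exact Poisson, Clopper-Pearson and conditional binomial intervals (scipy 1.17.1). The rules for ratios and classes were run on simulated Poisson counts alone. Such counts share the assumption of the intervals, so how these hold for UMIs gathered in few cells was not tested. With 1 library per group no test was possible. Chains with at least 50 UMIs in a class got values of their own there, with some exceptions. Among these were Col14a1, Col15a1 and Col24a1 in tumour-like cells and Col16a1 in pericyte-like cells. Of each list, the 2 members of highest level and the 2 of largest ratio got values. The members and lists were chosen with earlier results of these data known. Promoter windows came from RefSeq (GRCm38.p6). Other cell filters, doublet handling, clustering, class naming, free RNA, scaling, cluster weights and thresholds were tried. The further sgCPT1A sample was not analysed here.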

Additional observations from a re-analysis of the deposited data

Results flagged for a closer look

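Col6a1, Col6a2 and Col5a3 pointed in opposite directions in the stromal classes. Col6a1 had a log2 ratio of sgCPT1A over sgVC of -0.40 in fibroblast-like and 0.43 in pericyte-like cells, Col6a2 of -0.23 and 0.66, and Col5a3 of -0.23 and 0.69. The difference between the classes was not tested, since each class has 1 library per tumour, and the pericyte-like values rest on 27 and 55 cells. In fibroblast-like cells these 3 chains stayed under 1.5-fold.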

How the results depend on the processing

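The count of 12 chains higher in sgCPT1A fibroblast-like cells was 4 with clusters weighted alike, 6 at 2-fold and 5 without cluster 26, the last chosen after seeing the data. The count of 5 lower was 2 with doublets kept and 2 at 2-fold. The median log2 ratio of 0.41 was 0.43 with at least 500 genes per cell, 0.38 with at most 10% mitochondrial UMIs, 0.51 with doublets kept, 0.44 at resolution 0.5, 0.42 with chains kept in the clustering, 0.35 with classes from each cell's own markers, 0.20 with cells weighted equally, 0.42 with scaling by the median ratio, 0.25 without the cell holding most UMIs of a gene, 0.044 with clusters weighted alike, 0.21 at 50 UMIs or more, 0.25 at 1 UMI or more and 0.16 without cluster 26. With no minimum fold, 7 chains belonged to pericyte-like and 2 to tumour-like cells in sgVC, in place of 4 and 0. With the level of neutrophil-like cells subtracted as free RNA, 15 chains rather than 17 belonged to fibroblast-like cells. Apart from settings whose own construction changes the threshold or the cells counted, the cause of these shifts was not tested. None of the 17 called chains changed sign in the settings that gave it a value, up to 17 of them. A setting that left a chain too few UMIs for a ratio gave none, and so could not show a change of sign. Values came from 15 settings for Col13a1, 14 for Col25a1 and 12 for Col20a1. Single clusters were not among the settings. Col13a1 stood at -3.33 in cluster 19 on 4 and 3 UMIs, and Col25a1 at -0.91 in cluster 17 on 5 and 2 UMIs. Without the top cell, 29 of 30 partner ratios moved by less than their interval. Weighted-cluster values use clusters 17, 18 and 19 alone, and weighted-cluster and equal-cell counts use the fold alone. No paired analysis was possible because each group has 1 library. With 12 tumour-like cells in sgCPT1A, tumour chains there are left undescribed.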
